A study of Drosophila melanogaster with 46 samples.

Results

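Small RNAs of the piRNA clusters flamenco and 20A were compared between Drosophila melanogaster ovarian somatic cells depleted of SetDB1 (SetDB1-KD), cells depleted of HP1 (HP1-KD) and cells that received the control knockdown against GFP (GFP-KD). The regions are all 80 windows of 1 kb in the deposited table, 40 along flamenco (chrX:21500001-21540000) and 40 along 20A (chrX:21390001-21430000). All were taken, whatever their values, but earlier results of these data were known when the comparisons were chosen. Sums and shares of a cluster below are those of its 40 windows, and whether the cluster extends past them was not checked. The table gives every window the plus strand, and the submitters' processing notes name the genome build dm3. There is 1 library of total small RNA per knockdown, so 3 of the 46 samples of the series carry these comparisons, and 2 further libraries of the same table (Armi-KD and Piwi-KD) are used for contrast. Ovarian somatic cells (OSC) are a cultured line of ovarian follicle cell origin, and all of these cultures were transfected with siRNA 2 times and taken after 4 days. The labels name no further genotype or treatment. With 1 library each, no difference below has a replicate check, no p-value is given, and every interval is a 95% interval for counting error only.

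Piwi-interacting RNAs (piRNAs) are small RNAs that guide the Argonaute protein Piwi to nascent transcripts of transposable elements. In follicle cells they come largely from long single-strand transcripts of clusters such as flamenco and 20A on the X chromosome, which are filled with remnants of transposable elements. The transcripts are cut into piRNAs with the help of the RNA helicase Armi, and the mature piRNAs are loaded into Piwi. SetDB1, the product of the gene egg, is a histone methyltransferase for lysine 9 of histone H3, and the heterochromatin protein HP1 binds that mark. Both act on the heterochromatin side of the pathway, where piRNA-guided silencing ends. In the germline, dual-strand clusters use this same mark to be transcribed, through the HP1 relative Rhino, whereas flamenco and 20A are transcribed without Rhino. The comparison therefore addresses whether the supply of cluster piRNAs changes in somatic cells depleted of SetDB1 or HP1. No reading of the depleted proteins or their mRNAs is in the table, so the knockdowns themselves and the markers of follicle cells were not checked here, and no sequence of the windows was used.

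Values are the deposited normalized piRNA counts, called signal here. The signal of a library goes up in equal steps, and the step, taken as 1 read, was 1.42 in SetDB1-KD, 1.77 in HP1-KD and 1.38 in GFP-KD. The clusters together thus hold 3305487 implied reads in SetDB1-KD, 3387147 in HP1-KD and 3902747 in GFP-KD. The total to which a library was scaled would be 705835 reads in SetDB1-KD, 565429 in HP1-KD and 723454 in GFP-KD. Each total is smaller than the cluster reads of its own library. The table does not name the reads that were scaled to or say whether reads with several matches were counted in more than 1 window; neither was tested. Levels rest on that total, while shares within a library do not, and fewer piRNAs per cell cannot be told apart from a change in the reads used for scaling.

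The SetDB1-KD and HP1-KD libraries kept most of the cluster small RNA signal. Summed over its 40 windows, flamenco had a signal of 3616576 in SetDB1-KD, 4940355 in HP1-KD and 4213707 in GFP-KD. The ratio to GFP-KD was 0.858 (0.857 to 0.860) for SetDB1-KD and 1.172 (1.171 to 1.174) for HP1-KD. In flamenco the knockdowns thus lay on opposite sides of the control. The summed 20A signal was 1066511 in SetDB1-KD, 1050047 in HP1-KD and 1180896 in GFP-KD. Here the ratio to GFP-KD was 0.903 (0.900 to 0.906) for SetDB1-KD and 0.889 (0.886 to 0.892) for HP1-KD. Thus SetDB1-KD lay below GFP-KD in both clusters, while HP1-KD lay above it in flamenco and below it in 20A. With all libraries brought to equal sums over both clusters, SetDB1-KD changed sides in 20A, at 1.04 times GFP-KD, and stayed just below it in flamenco at 0.989. HP1-KD was at 1.06 in flamenco and 0.801 in 20A under that rescaling. Equal sums put the clusters on opposite sides of GFP-KD whenever the balance between flamenco and 20A differs. The sides under that rescaling therefore restate this balance and are no separate check.

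Depletion of Armi, the helicase of piRNA biogenesis, or of Piwi gives the scale for a loss of cluster piRNAs in this table. Flamenco had a summed signal of 280569 in Armi-KD and 279016 in Piwi-KD, and 20A had 147120 in Armi-KD and 132380 in Piwi-KD. In flamenco SetDB1-KD had 12.89 times (12.84 to 12.94) the signal of Armi-KD and 12.96 times (12.9 to 13.01) that of Piwi-KD. The corresponding ratios for HP1-KD were 17.6 (17.5 to 17.7) over Armi-KD and 17.7 (17.6 to 17.8) over Piwi-KD. The distance to the biogenesis knockdowns was smaller in 20A, where Armi-KD and Piwi-KD had 0.125 and 0.112 times the GFP-KD signal, against 0.0666 and 0.0662 times in flamenco. In 20A SetDB1-KD was 7.25 times (7.21 to 7.29) Armi-KD and 8.06 times (8.01 to 8.11) Piwi-KD, and HP1-KD was 7.14 times (7.10 to 7.18) and 7.93 times (7.88 to 7.98). Both chromatin knockdowns were close to GFP-KD on this scale, as the plot of summed signals shows.

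**Figure D1:**
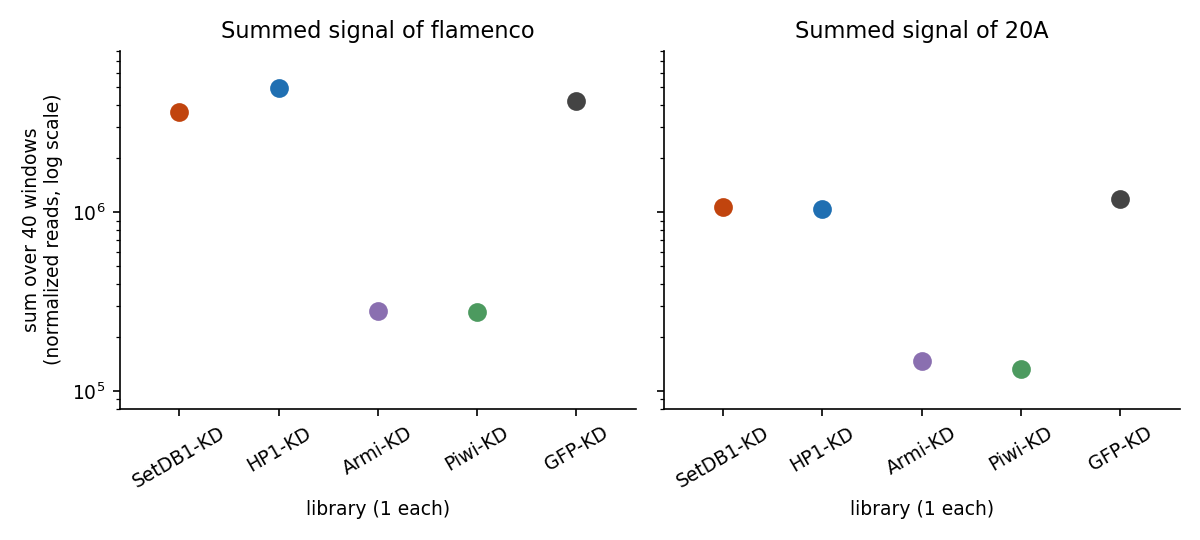
Summed small RNA signal (normalized reads, log scale) of flamenco (left) and 20A (right) in each knockdown library, with 1 point per library and no error bars since there is 1 library each. SetDB1-KD and HP1-KD lie near GFP-KD in both clusters, with 3616576 and 4940355 against 4213707 in flamenco, while Armi-KD and Piwi-KD lie at 280569 and 279016 there.

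The balance between the clusters does not depend on how a library was scaled. Flamenco had 77.2% (77.2 to 77.3, exact Clopper-Pearson interval) of the reads of both clusters in SetDB1-KD, 82.5% (82.4 to 82.5) in HP1-KD and 78.1% (78.1 to 78.2) in GFP-KD. As a ratio, flamenco signal was 3.39 times 20A signal in SetDB1-KD, 4.70 times in HP1-KD and 3.57 times in GFP-KD. The HP1-KD ratio was 1.319 times (1.314 to 1.323) that of GFP-KD, and the SetDB1-KD ratio was 0.9503 times (0.947 to 0.954) that of GFP-KD. The HP1-KD library thus held more flamenco small RNA for each 20A small RNA than GFP-KD did, and the SetDB1-KD library slightly less.

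The profile along flamenco kept its general shape, as the plot of levels along the windows shows on a log scale. In all 3 libraries the highest flamenco window was window 29 (chrX:21528001-21529000), with a signal of 354332 in SetDB1-KD, 381227 in HP1-KD and 354649 in GFP-KD. It held 9.80% of the flamenco signal in SetDB1-KD, 7.72% in HP1-KD and 8.42% in GFP-KD. The next highest in all 3 was window 17 (chrX:21516001-21517000), with 268982, 367381 and 325273 in the same libraries. The top of the profile was therefore the same in every library, and the order differed below it. Window 16 had 194126, 287803 and 267806, window 18 had 237952, 303030 and 265417, and window 15 had 193021, 302245 and 259493. These were the 5 highest windows of GFP-KD. Windows 29, 17 and 18 were also among the 5 highest in both knockdowns, joined by windows 9 and 16 in SetDB1-KD and by windows 7 and 15 in HP1-KD. The signal was concentrated alike, with 50% of it in 8 windows in SetDB1-KD, 8 in HP1-KD and 9 in GFP-KD.

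**Figure D2:**
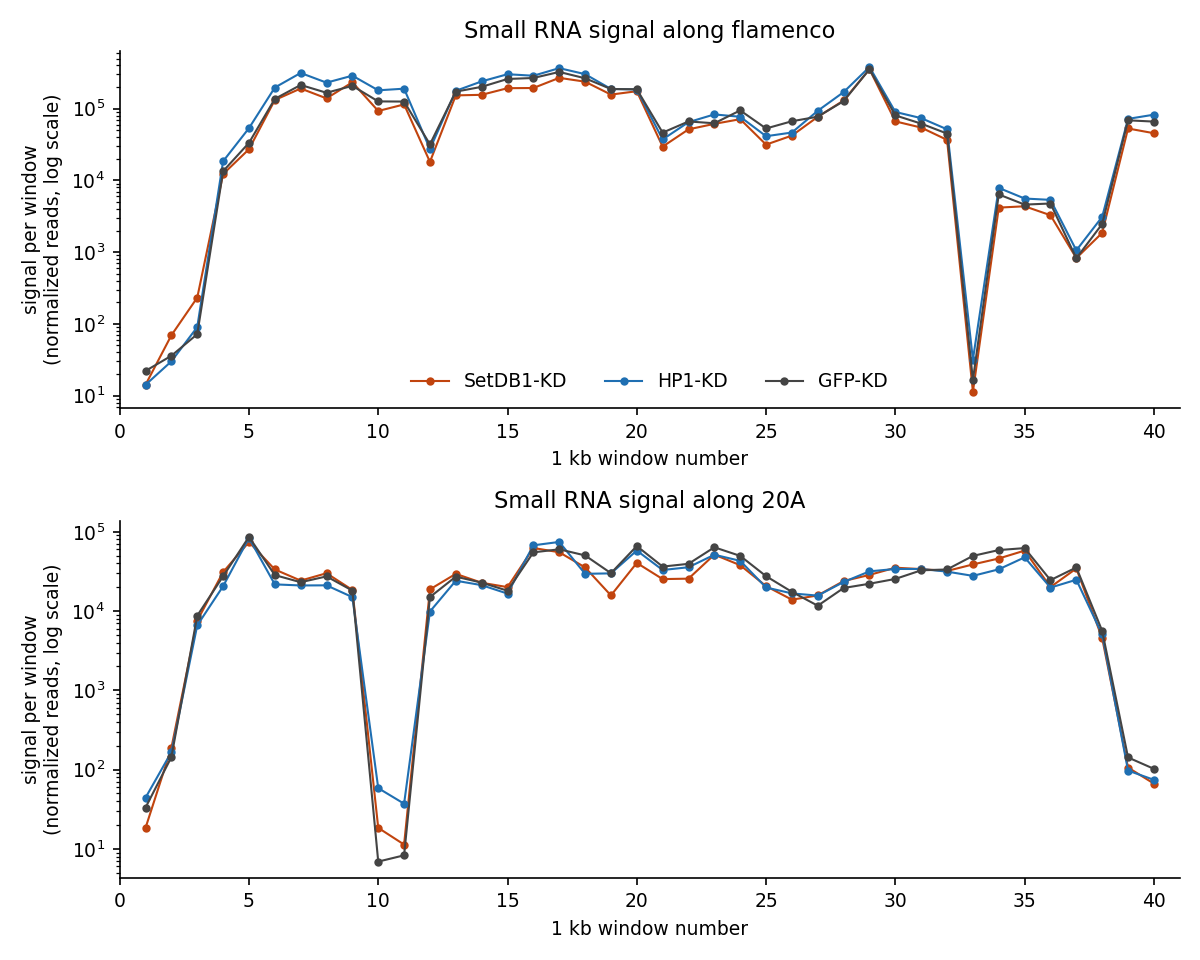
Small RNA signal per 1 kb window (normalized reads, log scale) against the window number along flamenco (top) and 20A (bottom), with 1 point per window for SetDB1-KD, HP1-KD and GFP-KD. The 3 profiles run together over most windows, and the low windows at the start of flamenco, at flamenco window 33 and at 20A windows 10 and 11 are low in all 3 libraries.

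In 20A the signal was spread more evenly. Its highest window in all 3 libraries was window 5 (chrX:21394001-21395000), with 74308 in SetDB1-KD, 83623 in HP1-KD and 86355 in GFP-KD, or 6.97%, 7.96% and 7.31% of the cluster. The other 4 of the 5 highest GFP-KD windows were less stable in rank. Window 20 had 40521 in SetDB1-KD, 58030 in HP1-KD and 66147 in GFP-KD, and was second in GFP-KD but not among the 5 highest in SetDB1-KD. Both knockdowns were below GFP-KD there, SetDB1-KD more so. Window 23 had 51555, 51372 and 63776 in that order of libraries, window 35 had 57933, 47617 and 62289, and window 17 had 55255, 74520 and 60177. The share of the signal that would have to move between windows to turn 1 profile into the other was 9.11% for SetDB1-KD and GFP-KD and 9.08% for HP1-KD and GFP-KD in 20A. The 20A profile therefore differed more from the control than that of flamenco. In flamenco the share to be moved was 5.69% for SetDB1-KD and GFP-KD and 6.41% for HP1-KD and GFP-KD. As a description across windows of the same cluster, which share their libraries and may share reads, Spearman's rho of the signal with GFP-KD was 0.987 for SetDB1-KD and 0.968 for HP1-KD over 36 flamenco windows. Over 34 windows of 20A it was 0.884 for SetDB1-KD and 0.875 for HP1-KD.

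Window by window, ratios were called past a 2-fold limit with 100 or more implied reads in at least 1 library of the pair. For SetDB1-KD over GFP-KD 73 of 80 windows had that depth, and 1 of them was at least 2-fold higher (1.37% of the windows compared) and 0 at least 2-fold lower (0%). For HP1-KD over GFP-KD 72 windows had the depth, and 0 were past the limit in either direction (0% higher, 0% lower). All deposited windows of that depth were compared, so these shares are the background as well as the result. At a limit of 1.5-fold the counts were 1 higher and 8 lower for SetDB1-KD, and 2 higher and 4 lower for HP1-KD.

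In flamenco 37 windows could be compared for SetDB1-KD, and 33 of them lay below GFP-KD, with a median ratio of 0.827 and quartiles of 0.744 and 0.939. The counting interval lay wholly below 1 in 31 windows and wholly above 1 in 3. For HP1-KD 36 windows could be compared and 29 lay above GFP-KD, with a median of 1.18 and quartiles of 1.04 and 1.33. Its interval lay above 1 in 28 windows and below 1 in 7. On the deposited scaling the shift of the sums was thus spread over most of flamenco in both knockdowns. These window counts and medians move with the scaling. Rescaled to the same sum over both clusters, the flamenco sums were 0.989 times GFP-KD for SetDB1-KD and 1.06 times for HP1-KD. The windows above and below GFP-KD were not recounted after that rescaling. In 20A the SetDB1-KD median was 0.944 (quartiles 0.782 and 1.11), with 21 of 36 windows below GFP-KD, and the HP1-KD median was 0.894 (quartiles 0.762 and 0.975), with 28 of 36 below. The median window interval extended 1.22% to either side of the ratio in flamenco for SetDB1-KD and 1.93% in 20A. For HP1-KD it extended 1.20% in flamenco and 2.163% in 20A. Ratios thus differed between windows by more than counting error, but how much of that spread would appear between libraries of 1 knockdown was not tested, since no replicate exists.

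**Figure D3:**
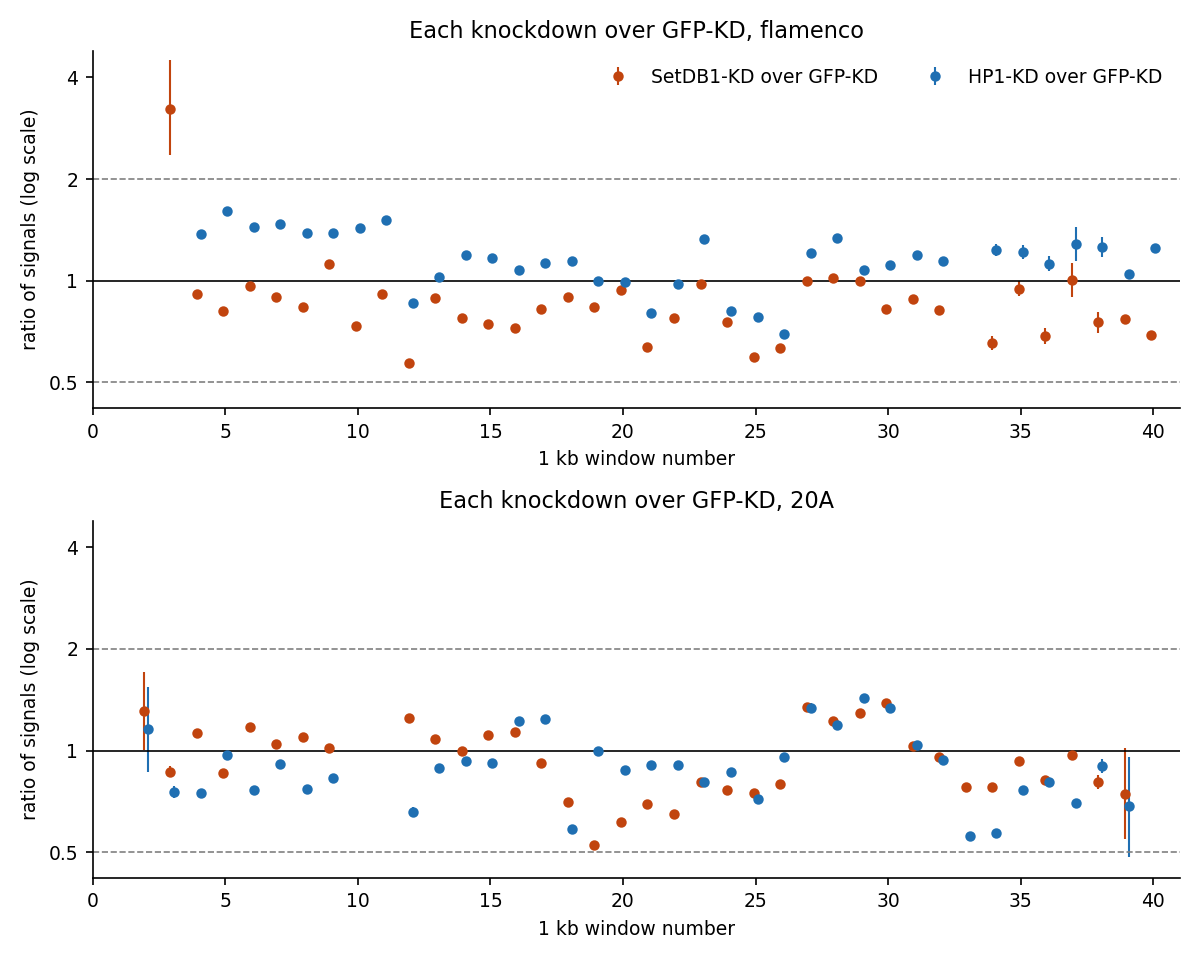
Ratio of window signals (log scale) of SetDB1-KD over GFP-KD and of HP1-KD over GFP-KD along flamenco (top) and 20A (bottom), for windows with at least 100 implied reads in the larger library. Bars are 95% counting intervals, the solid line marks a ratio of 1 and the dashed lines mark 2-fold; in flamenco the HP1-KD ratios of windows 4 to 11 lie between 1.38 and 1.60, and the SetDB1-KD ratio of window 3 is the 1 point beyond a dashed line.

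The 1 window past the limit in SetDB1-KD was flamenco window 3 (chrX:21502001-21503000), which lies directly before the steep increase in signal at the start of the cluster. It had a signal of 232 in SetDB1-KD, 90.2 in HP1-KD and 71.9 in GFP-KD, that is 164, 51 and 52 implied reads. The SetDB1-KD ratio to GFP-KD was 3.23 (2.35 to 4.51). HP1-KD had too few reads there for a call, with a ratio of 1.25 (0.836 to 1.88). The higher signal was thus in SetDB1-KD, while HP1-KD and GFP-KD had nearly the same number of reads. The neighbouring window 2 had 69.4 in SetDB1-KD, 30.1 in HP1-KD and 35.9 in GFP-KD, and its SetDB1-KD ratio was 1.93 (1.18 to 3.24) on 49 and 26 reads. In window 1, with 10 reads in SetDB1-KD, 8 in HP1-KD and 16 in GFP-KD, the SetDB1-KD ratio was 0.641 (0.260 to 1.501). The reads of windows 1 to 3 together were 0.00874% of the flamenco signal in SetDB1-KD and 0.00308% in GFP-KD, so this difference is a small part of the cluster. With a minimum of 300 reads the window was not compared, and 0 windows were then at least 2-fold higher in SetDB1-KD.

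Beyond window 3, the largest SetDB1-KD ratios in flamenco were close to 1. Window 9 had 233360 in SetDB1-KD, 288561 in HP1-KD and 208059 in GFP-KD, a SetDB1-KD ratio of 1.12 (1.11 to 1.13). Window 28 had 130033, 170198 and 127365 in the same libraries, at 1.02 (1.01 to 1.03). Windows 37 and 29 had ratios of 1.00 (0.894 to 1.13) and 0.999 (0.994 to 1.005). The 5 smallest SetDB1-KD ratios belonged to windows whose GFP-KD signal was under the flamenco median of 67845. Window 12 had 18136 in SetDB1-KD, 27415 in HP1-KD and 31835 in GFP-KD, a ratio of 0.570 (0.557 to 0.582). Window 25 had 31550, 41307 and 52952, at 0.596 (0.586 to 0.606), and window 26 had 42157, 46524 and 66820, at 0.631 (0.622 to 0.640). In these windows SetDB1-KD was the lowest of the 3 libraries. Window 21 had 29568, 37271 and 46353, at 0.638 (0.627 to 0.649), and window 34 had 4177, 7868 and 6375, at 0.655 (0.625 to 0.686).

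HP1-KD lay furthest above GFP-KD near the beginning of flamenco. All 8 windows from 4 to 11 (chrX:21503001-21511000) had HP1-KD ratios between 1.38 and 1.60. Their summed signal was 942821 in SetDB1-KD, 1473329 in HP1-KD and 1024477 in GFP-KD, which gave 1.44 for HP1-KD over GFP-KD and 0.920 for SetDB1-KD over GFP-KD. Window 5 had 27198 in SetDB1-KD, 53519 in HP1-KD and 33369 in GFP-KD, with the largest HP1-KD ratio of the windows compared at 1.60 (1.58 to 1.63). Window 11 had 114684, 190017 and 125679 in that order, at 1.51 (1.499 to 1.525). The excess was found in weaker and stronger windows of the run alike. Window 7 had 191199, 314830 and 214056, at 1.47 (1.46 to 1.48), window 6 reached 1.44 (1.43 to 1.45) and window 10 reached 1.43 (1.42 to 1.44). In window 12 the HP1-KD ratio was 0.861 (0.844 to 0.879), and over windows 12 to 20 the sums gave 1.09. These runs of windows were drawn after their values were seen.

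The low end of the HP1-KD ratios in flamenco lay in windows 21 to 26 (chrX:21520001-21526000). The run summed to 287611 in SetDB1-KD, 350258 in HP1-KD and 389650 in GFP-KD, so that both knockdowns were below the control, at 0.738 for SetDB1-KD and 0.899 for HP1-KD. Window 26 had the smallest HP1-KD ratio, 0.696 (0.686 to 0.707), followed by window 25 at 0.780 (0.767 to 0.793), window 21 at 0.804 (0.790 to 0.818) and window 24 at 0.815 (0.806 to 0.825). Window 23 stood apart in this run, with 61434 in SetDB1-KD, 83155 in HP1-KD and 62619 in GFP-KD, at 1.33 for HP1-KD. Windows 27 to 32, which include the highest window, had 719144 in SetDB1-KD, 860264 in HP1-KD and 746839 in GFP-KD, with HP1-KD above GFP-KD in 6 of 6 windows and SetDB1-KD below it in 5 of 6.

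In shares of the cluster, which need no scaling, the first 10 windows held 22.9% of flamenco in SetDB1-KD, 25.98% in HP1-KD and 21.3% in GFP-KD. Windows 11 to 20 held 46.1%, 45.9% and 48.0%, and windows 21 to 30 held 25.3%, 21.97% and 24.4%. The last 10 windows held 5.65%, 6.13% and 6.19% in SetDB1-KD, HP1-KD and GFP-KD. Window 40, the last of the region, still had a GFP-KD signal of 66042, near the flamenco median of 67845. The share of the first 10 windows was 25.4% in Armi-KD and 25.7% in Piwi-KD, so that GFP-KD had the lowest share of the 5 libraries and HP1-KD was close to Armi-KD and Piwi-KD. Per block of 10 windows the HP1-KD ratios to GFP-KD were 1.43, 1.12, 1.05 and 1.16 along flamenco, and the SetDB1-KD ratios were 0.922, 0.824, 0.889 and 0.783.

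In 20A the differences from GFP-KD changed side several times along the cluster. The largest ratios of both knockdowns lay in the same stretch: windows 27 to 31 (chrX:21416001-21421000) were above GFP-KD in 5 of 5 windows for SetDB1-KD and in 5 of 5 for HP1-KD. Their signal was 137385 in SetDB1-KD, 138582 in HP1-KD and 111487 in GFP-KD, at 1.23 for SetDB1-KD and 1.24 for HP1-KD. Window 30 had 35270 in SetDB1-KD, 33994 in HP1-KD and 25449 in GFP-KD, with ratios of 1.39 (1.36 to 1.41) and 1.34 (1.31 to 1.36). Window 29 had 28590, 31702 and 22124, with 1.29 (1.27 to 1.32) for SetDB1-KD and 1.43 (1.40 to 1.46) for HP1-KD. Window 27 had 15766, 15668 and 11683, with 1.35 (1.31 to 1.39) for SetDB1-KD and 1.34 (1.30 to 1.38) for HP1-KD. The knockdowns share the GFP-KD library, so a deviation of that library in these windows would move both ratios together; its part was not tested. Direct comparison, which leaves GFP-KD out, gave 0.991 for SetDB1-KD over HP1-KD in this stretch.

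Other 20A windows with large ratios differed between the knockdowns. Window 12 had 18800 in SetDB1-KD, 9874 in HP1-KD and 15028 in GFP-KD, and so was among the highest SetDB1-KD ratios at 1.25 (1.22 to 1.28) and among the lowest HP1-KD ratios at 0.657 (0.636 to 0.679). Windows 16 and 17 had HP1-KD ratios of 1.23 (1.21 to 1.24) and 1.24 (1.22 to 1.26) and SetDB1-KD ratios of 1.14 and 0.918. Window 2, with 133 reads in SetDB1-KD, 94 in HP1-KD and 104 in GFP-KD, had a SetDB1-KD ratio of 1.31, whose interval of 1.01 to 1.71 nearly reached 1.

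The smallest SetDB1-KD ratios of 20A lay next to each other in windows 18 to 22. Window 19 (chrX:21408001-21409000) had 15760 in SetDB1-KD, 29899 in HP1-KD and 30060 in GFP-KD, the smallest SetDB1-KD ratio of the windows compared at 0.524 (0.512 to 0.536), with HP1-KD at 0.995. Window 20 followed at 0.613 (0.604 to 0.622), window 22 at 0.650 (0.638 to 0.662), window 21 at 0.695 (0.682 to 0.709) and window 18 at 0.706 (0.695 to 0.718). In windows 19 to 22 SetDB1-KD was the lowest of the 3 libraries. Over these windows SetDB1-KD had 107246, HP1-KD 156619 and GFP-KD 172063. The smallest HP1-KD ratios lay elsewhere, in windows 33 and 34 (chrX:21422001-21424000), which summed to 84817 in SetDB1-KD, 61438 in HP1-KD and 108543 in GFP-KD. Their HP1-KD ratios were 0.560 (0.549 to 0.570) and 0.571 (0.562 to 0.581), and their SetDB1-KD ratios 0.780 and 0.782. Both knockdowns were low in window 18. It had 35573 in SetDB1-KD, 29528 in HP1-KD and 50374 in GFP-KD, an HP1-KD ratio of 0.586 (0.576 to 0.597), and window 39, on 75, 55 and 103 reads, had 0.683 (0.483 to 0.957).

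The knockdowns were also set against each other, which does not involve the GFP-KD library. Summed over flamenco, SetDB1-KD had 0.732 times (0.731 to 0.733) the signal of HP1-KD, and over 20A 1.02 times (1.01 to 1.02). Of the 72 windows compared, 1 was at least 2-fold higher in SetDB1-KD (1.39%) and 0 were at least 2-fold lower (0%). The higher 1 was again flamenco window 3, at 2.58, and its interval reaches down to 1.87. In flamenco 36 of 37 windows were lower in SetDB1-KD than in HP1-KD on the deposited scaling. The median ratio was 0.739, with quartiles of 0.639 and 0.794, and the counting interval lay below 1 in those 36. In 20A 23 of 35 windows were higher and 12 lower in SetDB1-KD, with a median of 1.04 and quartiles of 0.900 and 1.22. Rescaled to the same sum over both clusters, SetDB1-KD was 0.936 times HP1-KD in flamenco and 1.30 times in 20A. Equal sums fix the clusters on opposite sides when their balance differs, so these sides are no check of the deposited ones. The windows higher and lower in SetDB1-KD were not recounted after this rescaling. The ratio of flamenco to 20A was 0.721 times (0.718 to 0.723) as high in SetDB1-KD as in HP1-KD, which no scaling of a whole library changes.

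**Figure D4:**
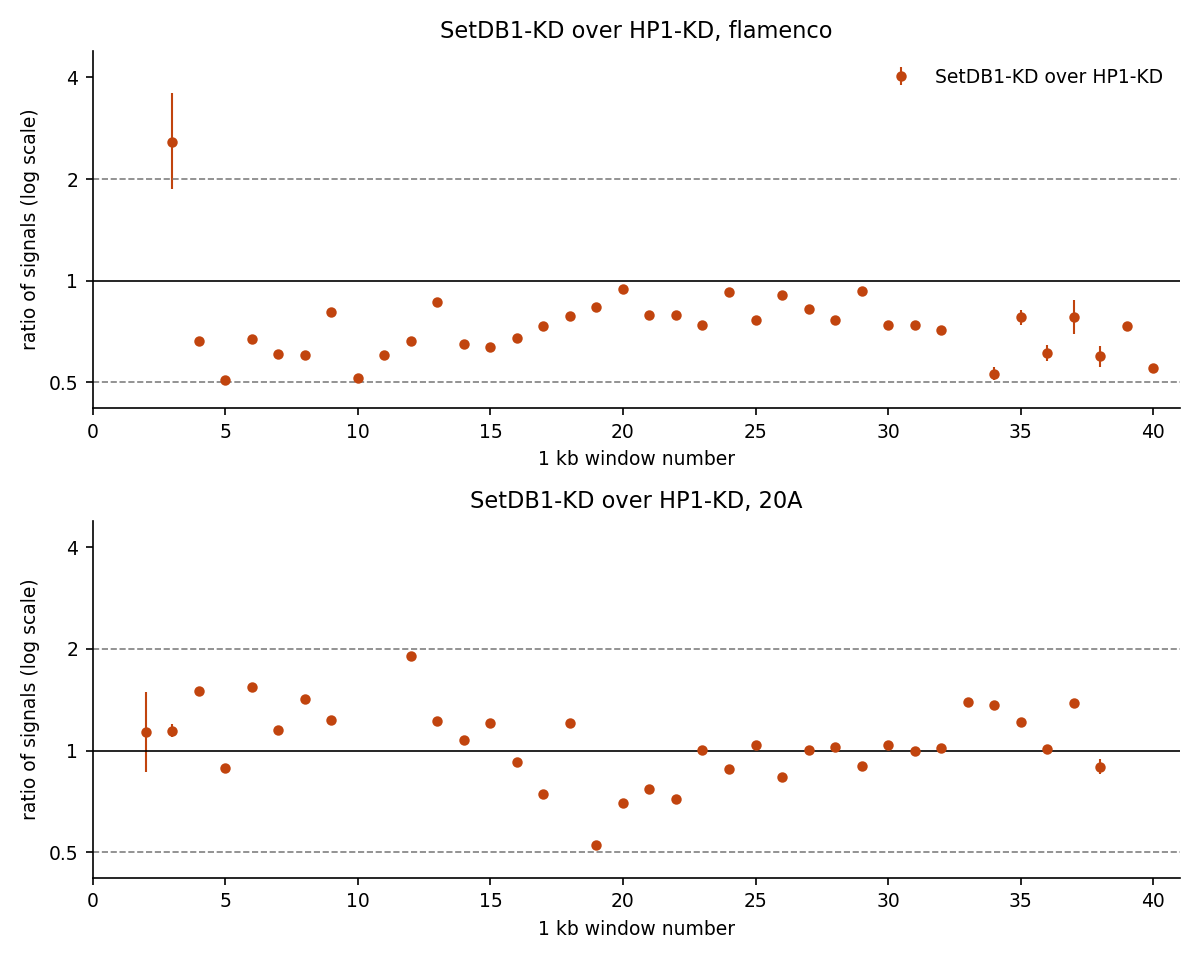
Ratio of window signals (log scale) of SetDB1-KD over HP1-KD along flamenco (top) and 20A (bottom), for windows with at least 100 implied reads in the larger library; bars are 95% counting intervals, and dashed lines mark 2-fold. On the deposited scaling 36 of 37 points lie below 1 in flamenco, while in 20A 23 of 35 lie above it.

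Several flamenco windows came close to the 2-fold limit in this direct comparison on the deposited scaling. Window 5 had 27198 in SetDB1-KD against 53519 in HP1-KD, a ratio of 0.508 (0.499 to 0.517). Window 10 had 92870 in SetDB1-KD and 180343 in HP1-KD, at 0.515 (0.510 to 0.520), and window 34 was at 0.531 (0.506 to 0.556). Windows 40 and 38, near the end of the region, were at 0.552 (0.544 to 0.559) and 0.598 (0.556 to 0.642). The windows nearest to parity were window 20 at 0.947 (0.939 to 0.955), window 29 at 0.929 (0.924 to 0.935), window 24 at 0.926 (0.914 to 0.938) and window 26 at 0.906 (0.891 to 0.921).

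Along 20A neighbouring windows often lay on the same side in the direct comparison. Windows 3 to 9 were higher in SetDB1-KD in 6 of 7 cases, with sums of 219122 in SetDB1-KD and 189729 in HP1-KD. Window 12 was at 1.90 (1.85 to 1.965), the largest ratio of the cluster, followed by window 6 at 1.54 (1.51 to 1.58), window 4 at 1.51 (1.47 to 1.54), window 8 at 1.42 (1.39 to 1.45) and window 33 at 1.39 (1.37 to 1.42). Windows 33 to 38 were higher in SetDB1-KD in 5 of 6 cases, with sums of 201857 in SetDB1-KD and 158761 in HP1-KD. The exceptions in these 2 runs were window 5 at 0.889 and window 38 at 0.897. Further inside the cluster, windows 12 to 15 were also higher in SetDB1-KD in 4 of 4 cases. All of these sides rest on the deposited scaling. Windows 19 to 22 were lower in SetDB1-KD in 4 of 4 cases. Window 19 had the smallest ratio, 0.527 (0.515 to 0.540), and windows 20, 22 and 21 had 0.698 (0.687 to 0.709), 0.718 (0.704 to 0.733) and 0.768 (0.752 to 0.784). Window 17 was at 0.741 (0.731 to 0.752).

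Windows under 100 implied reads in the larger library were not called. These were 3 flamenco and 4 20A windows for SetDB1-KD over GFP-KD, 4 and 4 for HP1-KD over GFP-KD, and 3 and 5 for SetDB1-KD over HP1-KD. Flamenco window 33 had 8 reads in SetDB1-KD, 18 in HP1-KD and 12 in GFP-KD, beside window 34 with 2948 in SetDB1-KD, 4449 in HP1-KD and 4612 in GFP-KD. Windows 10 and 11 of 20A (chrX:21399001-21401000) had 13 and 8 reads in SetDB1-KD, 33 and 21 in HP1-KD, and 5 and 6 in GFP-KD. In these the HP1-KD ratio to GFP-KD was 8.44 (3.28 to 27.7) for window 10 and 4.48 (1.75 to 13.6) for window 11, and the SetDB1-KD ratio was 2.66 (0.892 to 9.55) and 1.37 (0.416 to 4.78). Window 40 had 47 reads in SetDB1-KD, 42 in HP1-KD and 74 in GFP-KD, and window 1 had 13, 25 and 24. Apart from flamenco window 3, each ratio beyond 2-fold came from a window with fewer than 50 reads in the larger library, as the plot of ratios against depth shows.

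**Figure D5:**
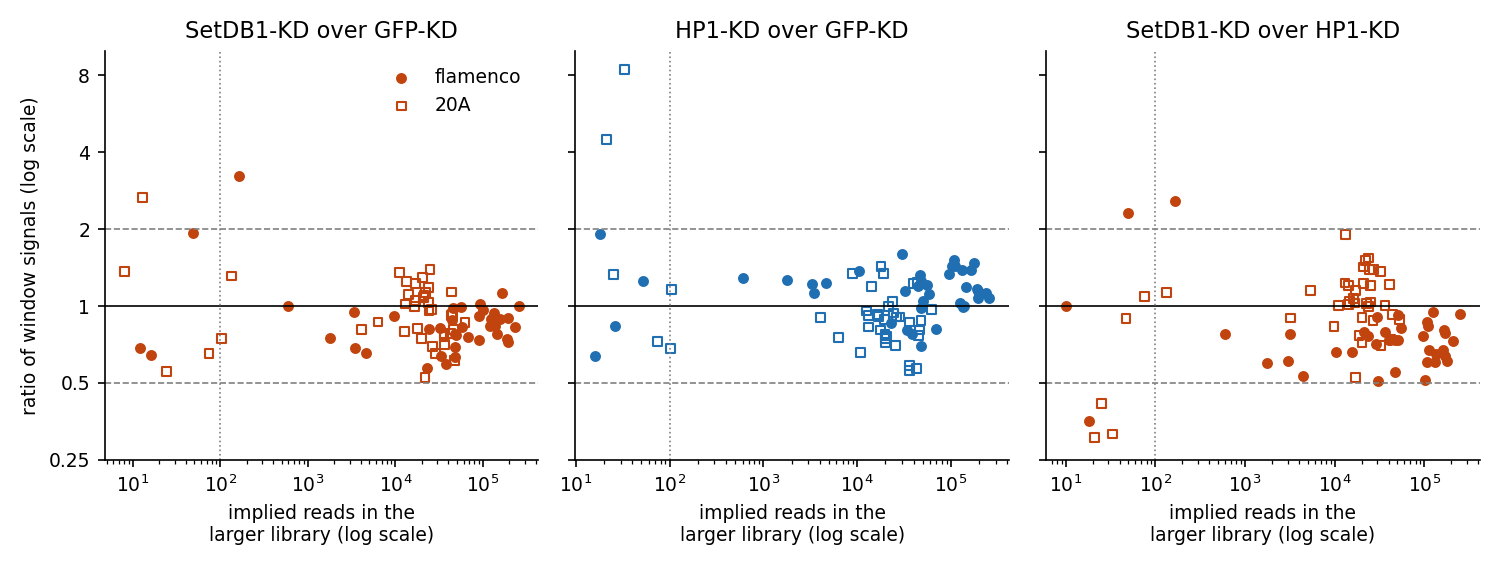
Ratio of window signals (log scale) against the implied reads of the larger library (log scale) for the 3 comparisons, with filled circles for flamenco and open squares for 20A. The dotted line marks 100 reads and the dashed lines mark 2-fold; right of the dotted line only flamenco window 3 lies beyond 2-fold, at 3.23 for SetDB1-KD over GFP-KD and 2.58 for SetDB1-KD over HP1-KD.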

How the data were processed

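The authors deposited a table of normalized piRNA counts per 1 kb window, per the file headers, used here as signal. Per the submitters' processing notes, the build dm3, bedtools 2.16.1, SAMtools 0.1.16, cutadapt 1.0 and Bowtie 0.12.7 were used, in roles not given in the sources used here. Size range, strand use and the treatment of reads with several matches are not given either, so windows of similar sequence may share reads. Windows, clusters and comparisons were chosen with earlier results of these data known.

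Each library was matched to its column by knockdown name. Implied reads are the signal divided by the largest step of which all values of a library are whole multiples (within 0.01 reads). The floor of 3 reads is a signal of 4.25 in SetDB1-KD, 5.31 in HP1-KD and 4.15 in GFP-KD. Intervals and floors take reads as independent molecules, which PCR copies are not. Ratios have exact conditional binomial 95% intervals. Their coverage was tested only on simulated independent reads, which is the assumption of the interval, and not with reads counted in several windows. The interval of a ratio of cluster balances is a normal approximation on the log scale. Named windows are the 5 largest and 5 smallest ratios per comparison and cluster and the 5 highest GFP-KD windows per cluster; others were chosen after their values were seen. Python 3.11.15, scipy 1.17.1, numpy 2.4.6, pandas 2.3.3 and matplotlib 3.10.9 were used. The transposable element table was not used here.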

Additional observations from a re-analysis of the deposited data

How the results depend on the processing

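No paired analysis was possible because each knockdown has 1 library, and for the same reason no library could be left out. Sums over windows with 100 reads in all 3 libraries stayed within the counting interval in all 6 cases. The windows left out held so little signal that these sums could hardly move, so this is no check of the ratios. Rescaled to the same sum over both clusters, the flamenco ratios were 0.989 (SetDB1-KD over GFP-KD), 1.06 (HP1-KD over GFP-KD) and 0.936 (SetDB1-KD over HP1-KD), and the 20A ratios 1.04, 0.801 and 1.30. Without the window of highest GFP-KD signal they were 0.845, 1.18 and 0.716 in flamenco and 0.907, 0.883 and 1.03 in 20A. As medians of window ratios they were 0.827, 1.18 and 0.739, and 0.944, 0.894 and 1.04. Only SetDB1-KD over GFP-KD in 20A changed sides, under the rescaling. Equal sums put the clusters on opposite sides whenever their balance differs, so the sides under the rescaling were fixed by that balance.

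Of 36 recounts past the limit 24 stayed the same. A count of 0 could not rise with a minimum of 300 reads or with the whole interval past 2-fold. Part of these 24 was therefore fixed in advance, and the tally is no measure of stability. At 1.5-fold, 8 windows were lower in SetDB1-KD and 4 in HP1-KD than in GFP-KD, 2 were higher in HP1-KD, and 4 were higher and 14 lower in SetDB1-KD than in HP1-KD. With a minimum of 30 reads 1 window was higher in HP1-KD than in GFP-KD, and 2 were higher and 1 lower in SetDB1-KD than in HP1-KD. With 300 reads 0 were higher in SetDB1-KD than in GFP-KD or HP1-KD, and with the whole interval past 2-fold 0 were higher than in HP1-KD. Rescaled over both clusters, 2 were higher in SetDB1-KD than in HP1-KD. Depth limits the windows of low signal, where 3 reads are a large part of the value.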

Other observations

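Windows 27 to 31 of 20A, in which both chromatin knockdowns exceeded GFP-KD, also kept much of their signal in the Armi-KD and Piwi-KD libraries. Among windows with at least 100 reads in GFP-KD, 10 of 20A (13 to 15 and 26 to 32) had over 15% of their GFP-KD signal left in both Armi-KD and Piwi-KD, a limit chosen after the values were seen. The nearest windows inside the limit were window 13, with 17.9% left in Armi-KD and 20.2% in Piwi-KD, and window 26, with 27.1% and 18.4%, and the nearest outside was window 35, with 13.7% and 13.4%. The 10 windows held 24.0% of the 20A signal in SetDB1-KD, 23.7% in HP1-KD, 57.8% in Armi-KD, 53.9% in Piwi-KD and 19.5% in GFP-KD. Their summed ratio to GFP-KD was 1.11 for SetDB1-KD and 1.08 for HP1-KD, against 0.853 and 0.843 for the other 26 windows of that depth. Within the 10, SetDB1-KD was above GFP-KD in 7 windows, with a median ratio of 1.10 and a lowest of 0.797, and HP1-KD was above it in 5, with a median of 0.998 and a lowest of 0.888. The windows above GFP-KD were 27 to 31 in HP1-KD, and the same windows with 13 and 15 in SetDB1-KD. All of these ratios use the same GFP-KD library, and so does the 15% limit that picked the 10 windows. A low GFP-KD value in a window would both help it pass the limit and raise its ratios. How much this adds to the contrast was not tested. SetDB1-KD over HP1-KD, a ratio without GFP-KD, was 1.03 in the 10 windows and 1.01 in the other 26. In flamenco 1 window, window 37, was past the same limit, with 36.0% left in Armi-KD and 37.1% in Piwi-KD, and window 38 was just outside it with 13.8% and 15.9%. Window 37 had 826 in SetDB1-KD, 1059 in HP1-KD and 822 in GFP-KD.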
